A study of Mus musculus with 6 samples.

Results

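The interferon receptors and the factors that carry their signal to the nucleus were described here in the organ of Corti of mice with and without pejvakin. The set holds 9 genes chosen by name from the pathway, with earlier results of these data known. Each was read by 1 probe set that names no other gene, so that 9 of 19938 tested genes were members. They are the receptor genes Ifnar1, Ifnar2, Ifngr1 and Ifngr2, the kinase genes Jak1 and Tyk2, and the transcription factor genes Stat2, Irf9 and Irf7. The organ of Corti is the strip of hair cells and supporting cells that detects sound in the cochlea. Its total RNA was hybridised to 6 mouse gene arrays, 3 from Pjvk-/- mice (knockout) and 3 from Pjvk+/+ mice (wild-type). All animals were at postnatal day 15 and of the mixed background C57BL/6J-129/Sv, and the labels name no sound exposure or other treatment. Pjvk encodes pejvakin, a gasdermin-family protein whose loss causes deafness. Values are log2 signals as deposited, and signals of different probe sets are not compared with each other in size.

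Type I interferons bind a receptor made of IFNAR1 and IFNAR2, and interferon gamma binds one made of IFNGR1 and IFNGR2. Receptor-bound kinases, TYK2 and JAK1 for type I interferon and JAK1 and JAK2 for interferon gamma, then phosphorylate STAT proteins. After type I interferon, STAT2 and IRF9 act together in the complex ISGF3, which binds the interferon-stimulated response element (ISRE) of its target genes. The gamma-activated site (GAS) is the element known from genes that respond to interferon gamma. IRF7 is itself induced by interferon and drives more interferon production, and Stat2, Irf9 and Irf7 are all known to be inducible by interferon.

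The regions before the start sites of Stat2, Irf9 and Irf7 are shown because these are the members with the lowest values in the knockout relative to the wild-type. The sequences are from RefSeq on GRCm38.p6, run 5' to 3' on the gene's own strand, and end at the base before the annotated start. All 9 members had an entry in that promoter table, and Irf9 had an entry for each of 2 starts, of which the upstream one is shown. Capitals mark a match to the ISRE core GAAANNGAAA on either strand or to the GAS TTCNNNGAA, and the windows searched held 250 bases before and 50 bases after the start.
Stat2, chr10:128270248-128270497, plus strand: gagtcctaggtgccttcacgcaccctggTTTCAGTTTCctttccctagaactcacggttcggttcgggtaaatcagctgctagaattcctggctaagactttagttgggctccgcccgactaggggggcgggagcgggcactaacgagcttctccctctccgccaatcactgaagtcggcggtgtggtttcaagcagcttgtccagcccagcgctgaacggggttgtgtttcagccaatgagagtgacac
Irf9, chr14:55603735-55603984, plus strand: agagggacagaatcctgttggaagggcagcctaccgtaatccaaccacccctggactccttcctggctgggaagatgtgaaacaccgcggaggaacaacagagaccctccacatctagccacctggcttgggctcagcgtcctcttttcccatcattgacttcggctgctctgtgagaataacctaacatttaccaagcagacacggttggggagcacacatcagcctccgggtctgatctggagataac
Irf7, chr7:141266425-141266674, minus strand: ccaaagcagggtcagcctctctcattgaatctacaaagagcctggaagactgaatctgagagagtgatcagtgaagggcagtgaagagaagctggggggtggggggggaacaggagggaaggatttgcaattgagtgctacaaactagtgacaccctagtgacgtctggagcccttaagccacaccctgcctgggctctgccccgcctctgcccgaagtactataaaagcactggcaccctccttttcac
The Stat2 window held the ISRE core on the opposite strand, as TTTCAGTTTC, with its first letter at position -222 from the start. That core was found in 3.44% of the 32851 windows of the table and in 3.99% of its 27025 genes. Among the 9 members it was found in 1. The GAS letters were found in 8.3% of the windows, in 9.55% of the genes and in 2 members. In these members they were TTCCTGGAA at position -214 of Ifnar2 and TTCACGGAA at position -5 of Ifnar1, the latter spanning the start. The matches of the 2 motifs did not overlap. A match is a run of letters and not a shown binding site, and windows without one say nothing of the factors further away.

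Array medians lay between 6.66 and 6.69, and no pair of arrays held identical values. Pjvk read 4.42, 4.36 and 4.21 in the knockout and 4.75, 5.06 and 4.96 in the wild-type (adjusted p = 0.105 by limma), a dim signal at percentile 11.3 of the tested genes. Whether these probes cover what the mutation removes is unknown, so the value checks the labels only in part. Knockout minus wild-type differences were tested with limma over all 19938 genes, with Benjamini-Hochberg adjustment, and called at an adjusted p under 0.05. At that threshold 7 genes, or 0.0351% of those tested, were called, all lower in the knockout. The differences went with signal level, from a median of 0.07 in level decile 3 to -0.06 in decile 8, so members are set beside the median of their own decile. Of hair cell and supporting cell markers, 6 of 12 and 11 of 12 lay at or above the median level of all genes. Genes divide equally about the median by definition, so the hair cell share was that of genes at large. Lymphocyte and granulocyte markers had 0 of 10 and 0 of 8 at or above it. In a whole tissue, fewer cells of a type and less RNA per cell cannot be told apart.

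None of the 9 members was called in the knockout. The 3 transcription factor genes had the lowest values relative to the wild-type, Irf7 at -0.38, Stat2 at -0.26 and Irf9 at -0.25 on the log2 scale. The 4 receptor genes lay between -0.12 and 0.01 and the 2 kinase genes at -0.02 and -0.01. Whether the roles differ from each other was not tested. In all, 8 of 9 members were lower and 1 higher, beside 53.9% of all genes lower, and their median was -0.08 beside -0.01 over all genes. Of the members, 7 lie in level deciles 7 to 10, where from 68.6% to 79% of genes were lower, so a majority of lower values is common at these levels. The direction count rests on small differences and was 5 lower and 4 higher with the level of Y-linked genes as a covariate. Without adjustment, 3 members were lower at p under 0.05, beside 6.66% of all genes. In 3 members every knockout array lay below every wild-type array, beside 11.3% of all genes in that direction and 20.9% of genes in level decile 8, which holds 2 of those 3. In 0 members did every knockout array lie above every wild-type array, beside 6.59% of all genes.

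**Figure D1:**
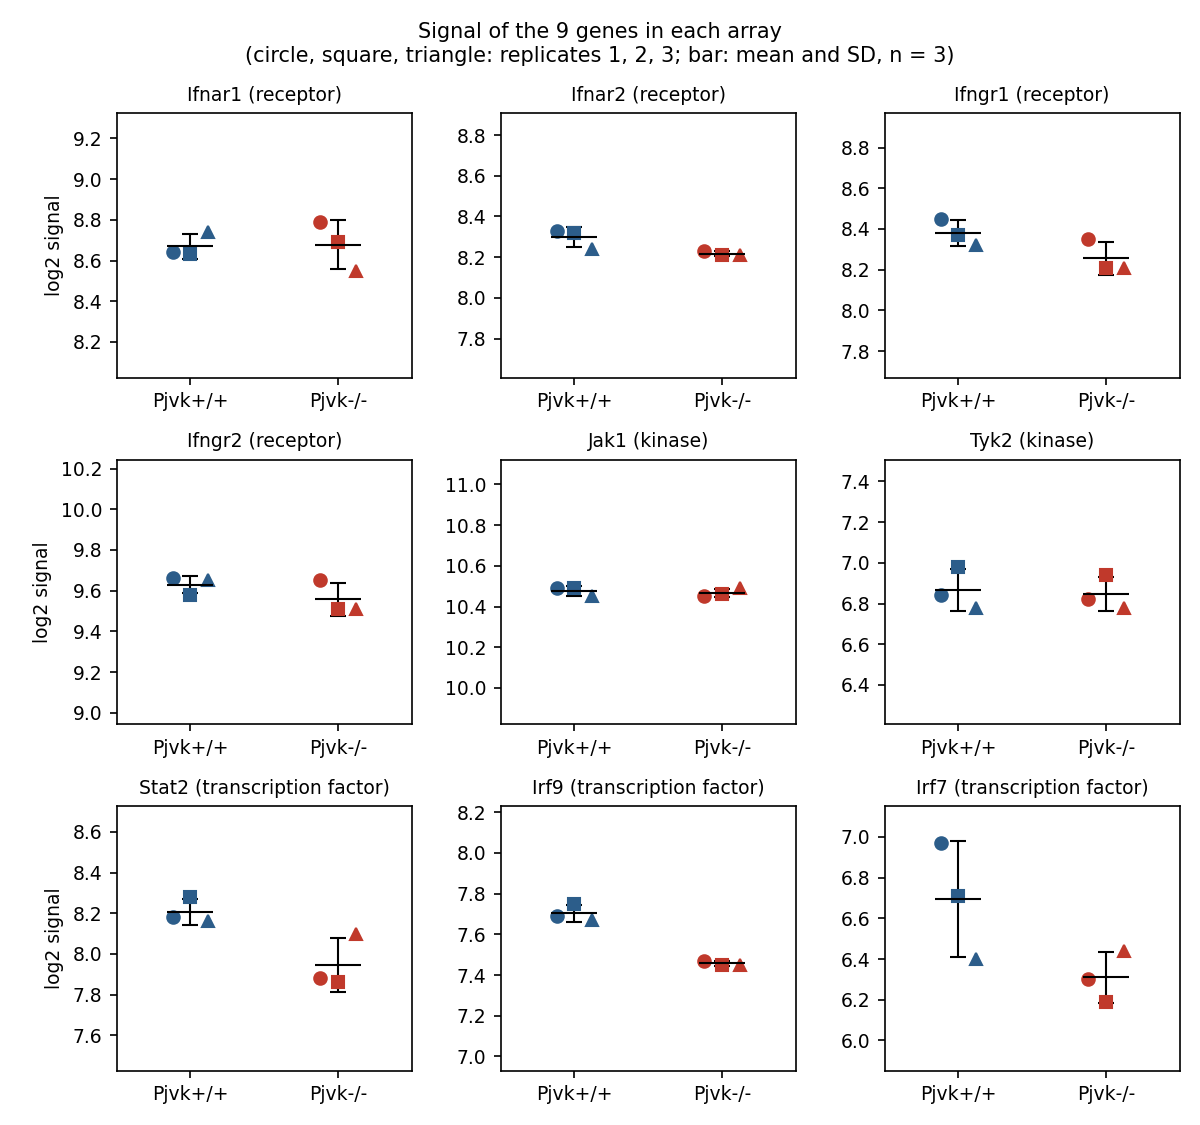
Log2 signal of each of the 9 genes in every array, with wild-type arrays in blue, knockout arrays in red, and bars for the mean and SD (n = 3). All panels span the same range of 1.3 log2 units. The knockout and wild-type values are apart by 0.20 in Irf9, overlap in Irf7, and lie close together in Jak1 and Tyk2.

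Irf9, the DNA-binding partner of the STAT proteins in ISGF3, had the clearest separation of the genotypes among the members. Its probe set (10415319, on chromosome 14) read 7.47, 7.45 and 7.45 in the knockout and 7.69, 7.75 and 7.67 in the wild-type. The highest knockout value lay 0.20 below the lowest wild-type value, while the knockout arrays differed among themselves by no more than 0.02. The difference was -0.25 (SE 0.05, 95% confidence interval -0.37 to -0.13), or 1.19-fold, with an adjusted p of 0.184 by limma. Irf9 ranked 143rd of all genes by unadjusted p (0.00133 by limma), and genes in its level decile had a median of -0.04. An exact two-sided permutation test over the 6 arrays gave p = 0.1, the smallest that 3 against 3 allows. The difference stayed between -0.26 and -0.22 under all 15 alternative settings, with adjusted p from 0.053, when genes below the median level were left out, to 0.91, with the Y-linked covariate.

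Stat2, the STAT protein specific to type I and type III interferon signalling, was next by unadjusted p among the members. Its probe set (10367224, on chromosome 10) read 7.88, 7.86 and 8.10 in the knockout and 8.18, 8.28 and 8.16 in the wild-type. The groups did not overlap, but knockout replicate 3 lay only 0.06 below the lowest wild-type array, while the other knockout arrays were lower. The difference was -0.26 (SE 0.08, 95% confidence interval -0.44 to -0.09), or 1.20-fold, with an adjusted p of 0.278 by limma (exact permutation p = 0.1). Genes in its level decile had a median of -0.06. Over the alternatives Stat2 lay between -0.34, without knockout replicate 3, and -0.22.

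Irf7, the factor that amplifies interferon production, had the largest difference among the members and the widest spread. Its probe set (10569102, on chromosome 7) read 6.30, 6.19 and 6.44 in the knockout and 6.97, 6.71 and 6.40 in the wild-type. Wild-type replicates 1 and 2 lay above all knockout arrays, whereas wild-type replicate 3 lay within the knockout range, so the groups overlapped. The difference was -0.38 (SE 0.13, 95% confidence interval -0.69 to -0.08), or 1.30-fold, with an adjusted p of 0.333 by limma (exact permutation p = 0.2). Genes in its level decile lay the other way, at a median of 0.05. Without wild-type replicate 1 the difference was -0.245, and without wild-type replicate 3 it was -0.53. With the level of Y-linked genes as a covariate it was -0.03 (SE 0.18).

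**Figure D2:**
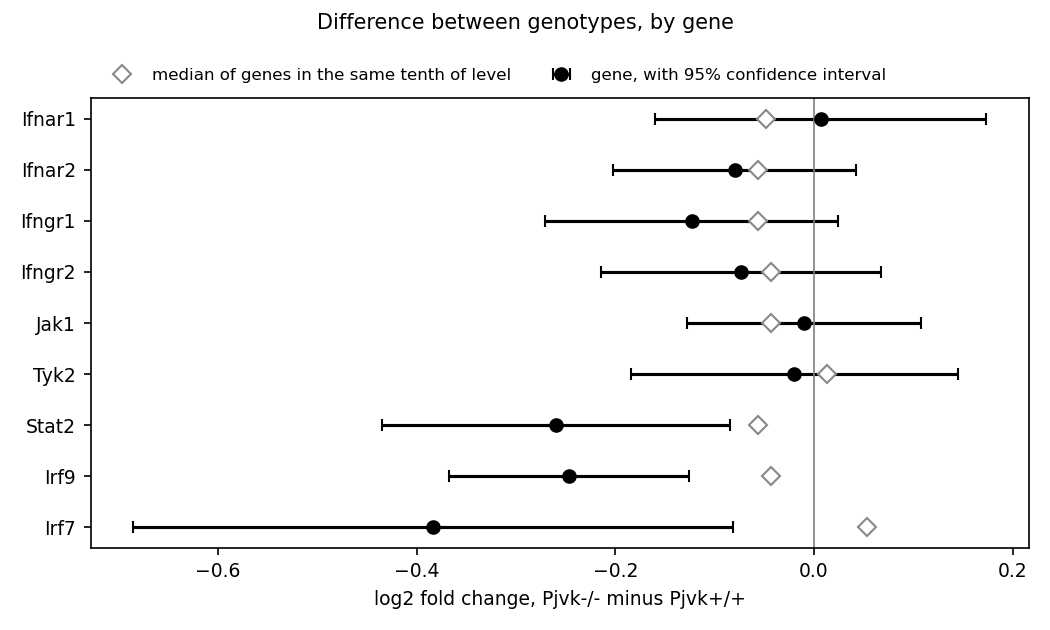
Difference between genotypes on the log2 scale for each gene (black points, with 95% confidence intervals from limma) and the median difference of all genes in the same decile of signal level (open diamonds). The unadjusted intervals of Stat2, Irf9 and Irf7 lie below 0, and those of the receptor and kinase genes include 0.

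The receptor genes differed little. Ifngr1, the ligand-binding chain of the interferon gamma receptor, read 8.35, 8.21 and 8.21 in the knockout and 8.45, 8.37 and 8.32 in the wild-type. Knockout replicate 1 lay within the wild-type range and the groups overlapped, with a difference of -0.12 (SE 0.06, 95% confidence interval -0.27 to 0.02, adjusted p = 0.46 by limma). With the Y-linked covariate it was 0.01. Ifngr2, the signalling chain of that receptor, read 9.65, 9.51 and 9.51 against 9.66, 9.58 and 9.65, which again overlapped through knockout replicate 1. Its difference was -0.07 (95% confidence interval -0.21 to 0.07), and -0.12 without knockout replicate 1.

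The type I receptor chains were as close. Ifnar2, the high-affinity binding chain, read 8.23, 8.21 and 8.21 in the knockout and 8.33, 8.32 and 8.24 in the wild-type. The genotypes did not overlap, with a gap of only 0.01, and the difference of -0.08 (95% confidence interval -0.20 to 0.04) was near the median of its decile, -0.06. It was -0.04 with quantile normalization or cyclic loess and -0.0072 with the Y-linked covariate. Ifnar1, the other chain, read 8.79, 8.69 and 8.55 in the knockout and 8.64, 8.63 and 8.74 in the wild-type. Its knockout arrays spanned the whole wild-type range, and the difference of 0.0067 (95% confidence interval -0.16 to 0.17) took either sign among the alternatives. Over the 4 receptor genes the intervals ran from -0.27 (Ifngr1) to 0.17 (Ifnar1), so smaller differences of either sign could not be told from 0 with these arrays.

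The kinase genes also differed little. Jak1, the kinase that serves both receptors, read 10.45, 10.46 and 10.49 in the knockout and 10.49, 10.49 and 10.45 in the wild-type. The 2 groups covered the same range, with a difference of -0.01 (SE 0.05, 95% confidence interval -0.13 to 0.11). Tyk2, the kinase bound to IFNAR1, read 6.82, 6.94 and 6.78 against 6.84, 6.98 and 6.78, a difference of -0.02 (SE 0.07, 95% confidence interval -0.18 to 0.14). In Tyk2 replicate 2 was the highest array of either genotype. Both genes changed sign under some alternatives, Jak1 to 0.02 with quantile normalization and Tyk2 to 0.04 without wild-type replicate 2.

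The 3 transcription factor genes did not follow one another in every array. As deviations from each gene's own mean over the 6 arrays, Irf9 stood at -0.11, -0.13 and -0.13 in the knockout and at 0.11, 0.17 and 0.09 in the wild-type. Stat2 stood at 0.02 in knockout replicate 3 and Irf7 at -0.10 in wild-type replicate 3, where in each case Irf9 lay on the side of its genotype. The root mean square difference of these deviations was 0.08 between Irf9 and Stat2, 0.19 between Irf9 and Irf7 and 0.18 between Stat2 and Irf7. Among the members, Stat2 was nearest to Irf9, with Ifngr1 close behind at 0.085. Irf9 was nearest to Stat2, with Ifnar2 next at 0.125. Stat2 and Irf9 were nearest to Irf7, with Ifngr1 next at 0.203. The measure includes the difference between the genotypes.

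Other genes were ranked by that measure over all 6 arrays. Left out were the members, predicted genes, clone names, small RNAs, and olfactory and vomeronasal receptor genes. Among the rest, the genes nearest to Irf9 were Ypel4 (0.0075), Mapk10 (0.018) and Dynll2 (0.019). Mapk10 encodes the kinase JNK3 and Dynll2 a dynein light chain. Those nearest to Stat2 were Steap2 (0.033), a metalloreductase gene, Hcn2 (0.034), a pacemaker channel gene, and Il1rapl2 (0.034). Those nearest to Irf7 were Slfn8 (0.08), a Schlafen gene, Usp18 (0.099), which encodes an interferon-induced protease that curbs IFNAR2 signalling, and Uty (0.10), which is on the Y chromosome. None of these 9 genes was called (adjusted p from 0.177 for Ypel4 to 0.442 for Slfn8 by limma), beside 0.0351% of all genes. They were picked for likeness to uncalled members over all 6 arrays, the genotype difference included. The lack of calls among them was therefore nearly fixed by the choice.

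The levels of several gene groups differed between the genotypes along with the 3 factor genes. The Y-linked genes, of which 3 of 4 were measured, had summed linear levels of 523 to 616 in the knockout and 633 to 826 in the wild-type, so the genotypes did not overlap. Their mean deviations were -0.09, -0.16 and -0.28 in the knockout and 0.38, 0.19 and -0.02 in the wild-type, the lowest wild-type value being in replicate 3, where Irf7 was lowest too. In the knockout the order was not shared, since the Y-linked genes were lowest in replicate 3, at -0.28, where Stat2 (0.02) and Irf7 (-0.06) were the highest of the knockout arrays. Eif2s3y ran from 7.73 to 8.16 against 8.15 to 8.46, and Uty from 7.63 to 7.77 against 7.79 to 8.22. With the mean Y-linked level as a covariate Irf9 was at -0.22 (SE 0.09) and Stat2 at -0.33 (SE 0.14), both with an adjusted p of 0.91 by limma. Irf7 was then at -0.03 (SE 0.18). The covariate overlaps in large part with the genotype. Its role and that of genotype cannot be told apart for Irf7, Irf9 or Stat2.

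Macrophage markers, from a cell type that carries much interferon signalling, had summed levels of 2239 to 2478 in the knockout and 2333 to 2405 in the wild-type over 16 of 16 markers. The ranges overlapped, and 8 markers were lower and 8 higher, beside 53.9% of all genes lower. Endothelial markers were lower, with sums of 2752 to 2987 against 3068 to 3172 over 9 markers, of which 8 were lower. In level decile 7, which holds their median level percentile of 69.6, 68.6% of genes were lower. Single genes there did not overlap, with the knockout lower, in 16.5%. The brightest endothelial markers, Emcn and Cldn5, differed by -0.18 and 0.05. Melanocyte markers summed to 657 to 761 against 922 to 1059, but only 4 of 6 were lower, with a median of -0.07. Their brightest members were Mitf at -0.05 and Dct at -1.86 (adjusted p = 0.0115 by limma), the latter an enzyme of melanin synthesis. Markers of spiral ganglion neurons summed to 15440 to 15920 against 15970 to 16420, while 4 of these 7 were lower and 3 higher, with a median of -0.0067. The neurofilament genes Nefh and Nefl were at 0.01 and -0.09. Granulocyte markers (396.3 to 440.5 against 362.2 to 396.1, 7 of 8 markers higher) and plasmacytoid dendritic cell markers (929 to 970 against 894 to 910, 5 of 6 markers higher) were higher in the knockout without overlap, and 0 and 1 of them reached the median level. Their brightest members were S100a9 (0.15) and Camp (0.06), and Tcf4 (0.03) and Cox6a2 (0.14), none of them called. The median level percentile was 20.6 for the granulocyte list and 35.3 for the plasmacytoid dendritic cell list. In level deciles 3 and 4, which hold those levels, 27.3% and 31.8% of genes were lower. Single genes there did not overlap, with the knockout higher, in 12.9% and 13.8%. A majority of higher values is thus common at these levels. The part of these cell types in the differences of Stat2, Irf9 and Irf7 was not tested.

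**Figure D3:**
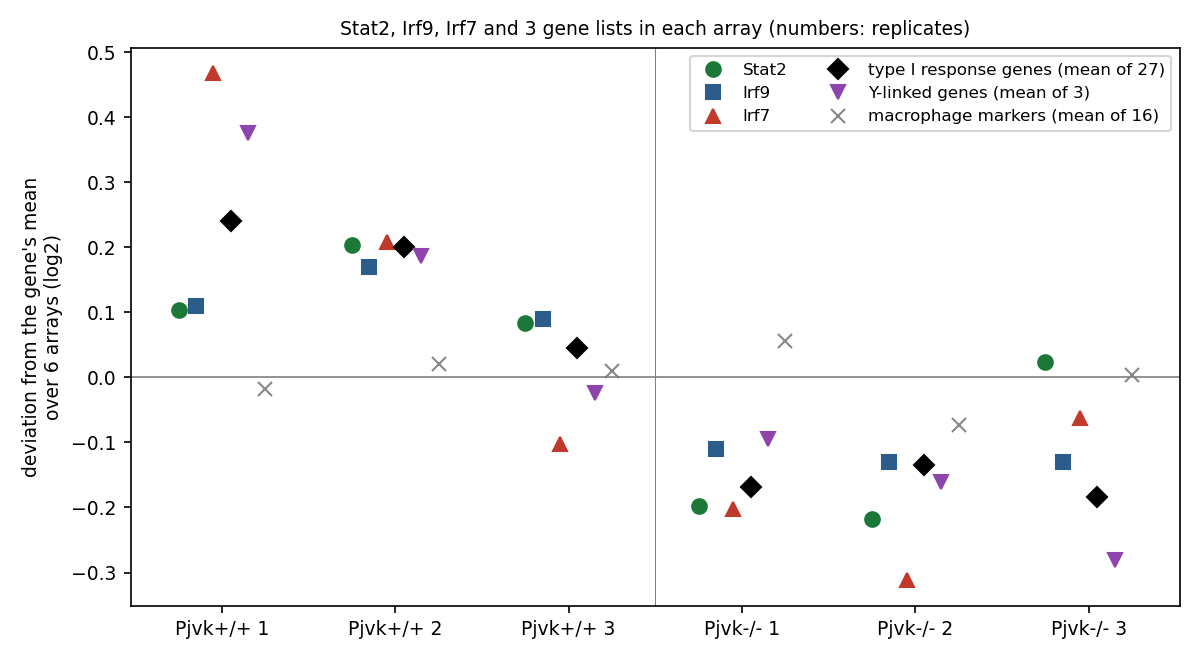
Deviation from each gene's own mean over the 6 arrays (log2) for Stat2, Irf9 and Irf7, and the mean deviation of the type I response genes (27), the Y-linked genes (3) and the macrophage markers (16), in each array. Irf9 splits by genotype, Irf7 and the Y-linked genes are both lowest among wild-type arrays in replicate 3 but differ in order among knockout arrays, and the macrophage markers lie near 0 throughout.

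**Figure D4:**
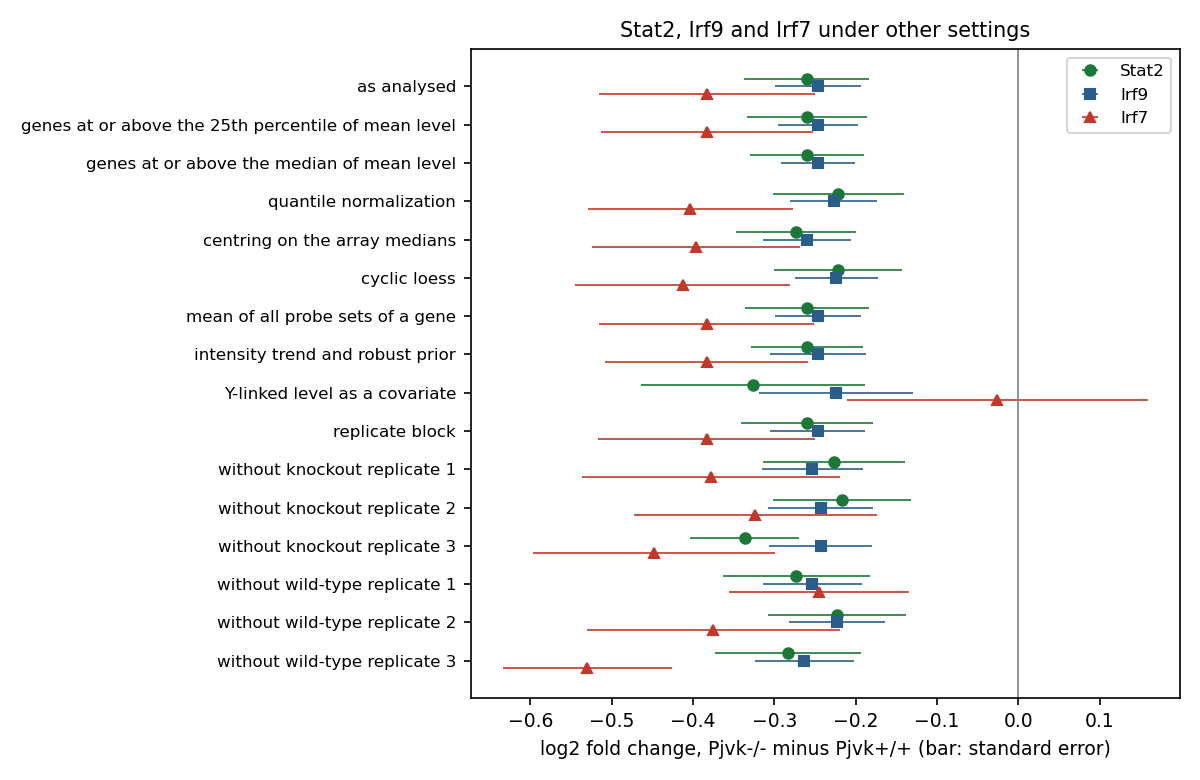
Difference between genotypes for Stat2, Irf9 and Irf7 (log2, bars are standard errors) as analysed and under each alternative setting. Irf9 stays between -0.26 and -0.22, and Irf7 moves from -0.53 without wild-type replicate 3 to -0.03 with the Y-linked covariate; Irf7 is below the filter at the median level and has no point there.

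The other genes of the pathway were read from 6 lists, also chosen with earlier results of these data known. Counts of list genes beside all genes are therefore a description and not a test. None of the lists had a called member, and the smallest adjusted p in any list was 0.0534 by limma, for Oasl2. List genes without a tested probe set are not analysed here.

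The genes for the interferons themselves had values like those of other dim genes. Of 15 measured, 5 were lower and 10 higher, with a median of 0.05. Their median level percentile was 24, and in level decile 3, which holds that level, 27.3% of genes were lower and the median was 0.07. At an unadjusted p under 0.05, 2 were higher and 0 lower, beside 5.74% of all genes higher. Ifna2 read 6.31, 6.45 and 6.39 in the knockout and 6.22, 5.75 and 5.96 in the wild-type (0.41, SE 0.11, adjusted p = 0.248 by limma). Ifnab differed by 0.18 and Ifna4 by -0.12. Interferon alpha genes are near-identical copies, and which of them a probe set reads is uncertain. Ifnb1 at 0.03 and Ifng at -0.08, named after their values were seen because they encode interferon beta and gamma, both had overlapping groups.

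Genes for the sensing of nucleic acids, which act upstream of IRF7, were lower in 13 of 16 measured, beside 53.9% of all genes, with a median of -0.095. At an unadjusted p under 0.05, 4 were lower and 1 higher, beside 6.66% and 5.74% of all genes. Trim25, which encodes a ubiquitin ligase that activates RIG-I, read 6.42, 6.31 and 6.48 in the knockout and 6.88, 6.62 and 6.57 in the wild-type (-0.29, SE 0.09, adjusted p = 0.30 by limma). Sting1, the adaptor of cytosolic DNA sensing, differed by -0.22 (SE 0.08) with overlapping groups. Tlr9, the endosomal receptor for unmethylated DNA, lay the other way at 0.20 (SE 0.07).

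The other JAK-STAT genes and regulators lay on both sides, 12 lower and 8 higher of 20 measured, with a median of -0.04. At an unadjusted p under 0.05, 2 were lower and 2 higher, close to the shares of 6.66% and 5.74% over all genes. Il10rb encodes a chain of the receptors for interferon lambda and interleukin-10 and lies between Ifnar2 and Ifnar1 in the gene order of chromosome 16, with Ifngr2 next after Ifnar1. It read 9.66, 9.72 and 9.68 in the knockout and 9.82, 9.87 and 9.88 in the wild-type, which did not overlap (-0.17, SE 0.05, adjusted p = 0.30 by limma). Of these 4 neighbours, only Il10rb and Ifnar2 had groups that did not overlap, the latter with a gap of 0.01. With the knockout lower, 11.3% of all genes did not overlap. That share was 20.9% in level decile 8, which holds Ifnar2, and 21.5% in level decile 10, which holds Il10rb. Socs3, an inhibitor of JAK signalling, was at 0.17 (SE 0.06), and Usp18 was at -0.29 (SE 0.11) with wild-type replicate 3 inside the knockout range, as in Irf7. None of the 9 members shares the chromosome of Pjvk.

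The rest of the IRF family was closer between the genotypes in value than Irf7 and Irf9. The 6 other measured IRF genes lay between -0.09 and 0.12, with a median of -0.02. All had overlapping groups, as Irf7 did, beside 17.8% of all genes without overlap in either direction. None was at an unadjusted p under 0.05 by limma, beside 12.4% of all genes in either direction. Irf8, a factor of macrophages and dendritic cells, was at 0.12 (SE 0.08). Irf1, the main IRF of the interferon gamma response, was at -0.09 (SE 0.07), as was Irf2, its antagonist (-0.09, SE 0.07). Whether these differences are distinct from those of Irf7 and Irf9 was not tested.

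The type I response list holds known targets of ISGF3. Of 27 measured 24 were lower, beside 53.9% of all genes, with 18 below 0.05 by unadjusted p, beside 6.66% of all genes, and 15 had groups that did not overlap, beside 11.3% of all genes in that direction. Their median was -0.29, and -0.16 with the Y-linked covariate. Oasl2, a member of the oligoadenylate synthetase family, differed by -0.55 (SE 0.07, adjusted p = 0.0534 by limma) and Rtp4, a chaperone-like protein induced by interferon, by -0.89 (SE 0.11, adjusted p = 0.0595 by limma). Rtp4 read 6.38, 6.54 and 6.34 in the knockout and 7.58, 7.24 and 7.12 in the wild-type. Trim30a was at -0.48 (SE 0.08). Their mean deviation was -0.17, -0.14 and -0.18 in the knockout and 0.24, 0.20 and 0.04 in the wild-type, so that wild-type replicate 3 was again the lowest of its group.

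The interferon gamma response genes were split. Of 15 measured, 8 were lower and 7 higher, with a median of -0.03, and 5 were lower and 1 higher at an unadjusted p under 0.05, beside 6.66% and 5.74% of all genes. Iigp1 (-0.51, SE 0.08, adjusted p = 0.13 by limma) and Irgm1 (-0.50, SE 0.09, adjusted p = 0.147), both immunity-related GTPase genes, and B2m, the light chain of class I molecules (-0.46, SE 0.10, adjusted p = 0.178), had groups that did not overlap. B2m lies on the chromosome of Pjvk, 556 genes away. Iigp1 and Irgm1 respond to type I interferon as well. The list median was -0.33 over the 7 members at or above the median level.

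**Figure D5:**
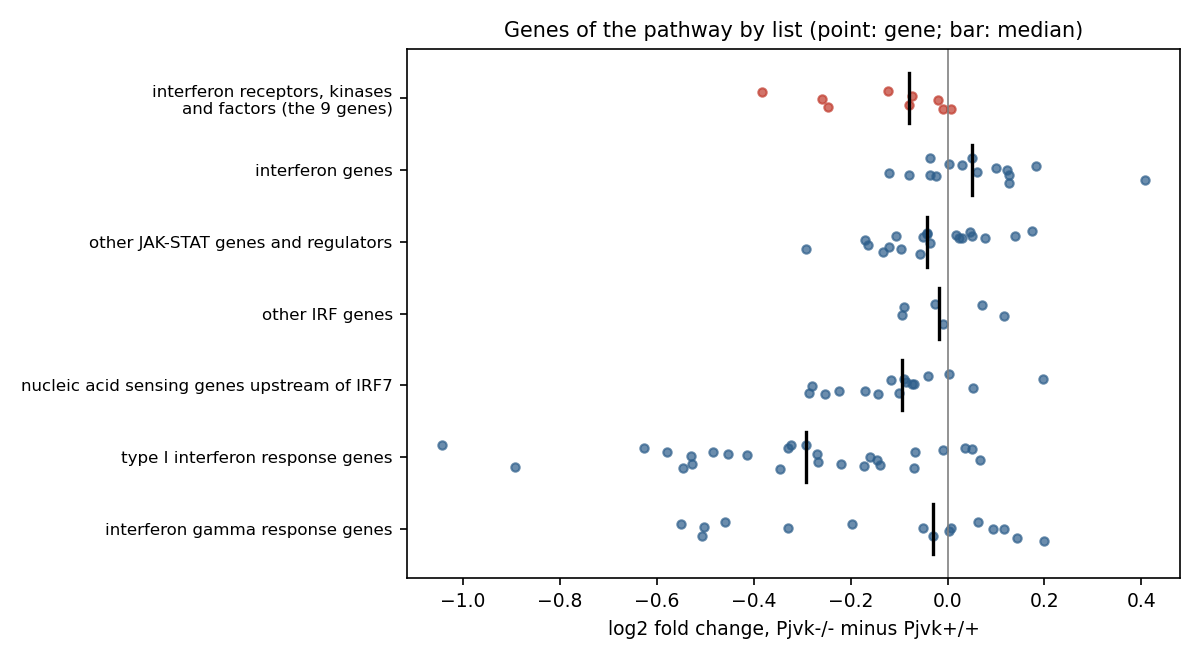
Difference between genotypes (log2) of each gene in the 9-gene set (red) and in the 6 pathway lists (blue), with the median of each as a bar. The medians are -0.29 for the type I response genes, -0.08 for the 9 genes and 0.05 for the interferon genes, and single genes reach -1.04 in the type I response list.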

How the data were processed

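The deposited table held 35557 probe sets on a log2 scale, 1 column for each of 6 arrays, made by the authors with the Affymetrix Expression Console per the submitters' processing notes, which give no version. The method of summarization and normalization, and the genome build, are not stated in the labels or the table. Per the labels' protocols, cDNA was made from 100 ng of total RNA. No further normalization was applied. The platform annotation gave 21789 probe sets 1 symbol, which were updated by gene identifier. The probe set with the highest mean was kept for each gene. limma 3.58.1 in R 4.3.3 (lmFit, eBayes, 4 residual and 4.59 prior degrees of freedom) compared the genotypes, and the limma step was tested on simulated data. The labels do not say that samples came from separate animals, so p-values here reflect only how much these arrays vary, and that variation may be technical. Their number limits the precision. Strain variants under the probes were not assessed.

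The members and lists were chosen with earlier results of these data known. Named were the members, the up to 3 genes of each pathway list with the smallest unadjusted p, the 3 genes most like each of the 3 members with the smallest p, and the 2 brightest markers of cell type lists that moved with a result. Alternatives were filters on dim genes, 3 normalizations, the mean of probe sets, an intensity trend with robust prior, the Y-linked covariate, a replicate block and leaving out each array.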

Additional observations from a re-analysis of the deposited data

How the results depend on the processing

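No member was called under any of the 15 alternatives, and Irf9, Stat2, Ifngr2 and Ifnar2 were lower in the knockout under all of them; Irf7 was lower under all 14 in which it was tested. Over all genes, 7 were called as analysed, 20 with the filter at the 25th percentile (18 lower and 2 higher), 45 at or above the median level (42 lower and 3 higher), 18 with centring on the array medians, 112 with an intensity trend and robust prior (100 lower and 12 higher), 0 with the Y-linked covariate, and from 2 to 6 with 1 array left out, down to 2 without wild-type replicate 1 or 2 and 3 without knockout replicate 3. With the replicate block 1 gene was called and no member. Deviations of same-numbered arrays correlated at 0.076, 0.019 and -0.0094 over genes, so these arrays shared little over genes as a whole. Whether the numbers pair the samples for part of the genes was not tested. Jak1 turned to 0.0178 with quantile normalization, 0.0268 with cyclic loess and 0.0054 with the Y-linked covariate, Ifnar1 to -0.0067 with centring, and with the covariate Ifngr1 to 0.0144 and Tyk2 to 0.0507. With 1 array left out Ifnar1 ran from -0.05 to 0.07 and Tyk2 from -0.0667 to 0.0367. The median of the 9 genes was -0.0378 with quantile normalization, -0.0389 with cyclic loess, -0.0072 with the covariate, and -0.12 to -0.0633 with 1 array left out. The interferon gene list was at 0.125 with the 25th percentile filter, 0.123 above the median level, 0.0098 with cyclic loess, 0.00098 with the covariate and 0.02 to 0.10 with 1 array left out. The other JAK-STAT list was at -0.0025 with quantile normalization, -0.0567 with centring, 0.000399 with cyclic loess, -0.023 with the covariate and -0.055 to -0.0233 with 1 array left out. With 1 array left out the other IRF list ran from -0.0742 to 0.0425 and the gamma list from -0.0317 to 0.015. The type I list was at -0.16 with the covariate and the gamma list at -0.33 above the median level, where fewer genes are tested. Otherwise the cause of these shifts was not tested.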
